A study of Rattus norvegicus with 4 samples.

Results

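The insulin-like growth factor (IGF) genes examined here were 2 ligands (Igf1, Igf2), 2 receptors (Igf1r, Igf2r) and 6 binding proteins (Igfbp2 to Igfbp7), followed in rat retinal neurospheres grown with or without medium conditioned by endothelial cells. All probe sets whose platform annotation gave exactly 1 gene symbol, that of one of these 10 genes, were taken, which gave 23 of 31099 probe sets on the array. Each gene had between 1 probe set (Igfbp2, Igfbp4, Igfbp7) and 5 probe sets (Igfbp5).

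Retinal cells were dissociated from embryonic day 18 Sprague Dawley rat embryos and grown as neurospheres, which are floating clusters of dividing cells. The neurospheres received either epidermal growth factor (EGF) together with endothelial cell conditioned medium (EGF + ECCM, 2 arrays) or EGF without that medium (EGF, 2 arrays). No genetic change is named for either condition, and both received EGF. The series description states that retinae of 10 embryos were pooled and that a further pool gave the replicate of each condition. The labels do not name the endothelial cells that conditioned the medium. Labelled copies of total RNA were read on the Affymetrix Rat 230 2.0 array, whose probe sets report mostly from the 3' ends of transcripts.

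IGF1 and IGF2 are secreted growth factors that signal through the IGF1 receptor, a tyrosine kinase that feeds the PI3 kinase, AKT and MAP kinase pathways. The IGF2 receptor, also the mannose 6-phosphate receptor, takes up IGF2 and delivers it to lysosomes. Secreted binding proteins hold IGFs in the fluid around cells and lengthen, limit or localise their action, and proteases release the ligands from them. In the developing retina IGF signalling is known for its support of progenitor division and neuron survival.

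The values are log2 signals. As deposited, the array medians were 6.84 and 6.56 in EGF + ECCM and 6.03 and 6.25 in EGF, so all differences depend on the scale. Arrays of the same condition differed across probe sets by an SD of 0.29 to 0.33 log2 after quantile normalization, against 0.45 to 0.48 log2 between conditions. RNA degradation enlarges the signal difference of the actin controls at the 3' end over the 5' end, and that difference was 1.54 and 1.37 log2 in EGF + ECCM and 1.99 and 2.08 log2 in EGF. For the GAPDH controls the same difference was 0.19 and 0.18 log2 in EGF + ECCM and 0.31 and 0.30 log2 in EGF. The part of RNA degradation in any difference given here was not tested. Values below are quantile normalized unless called deposited, and differences are EGF + ECCM minus EGF with limma's standard error (SE). A probe set is said to have risen or fallen where the limma adjusted p was under 0.05 in the same direction on 3 scales, namely quantile normalized, deposited and median-centred. Probe sets are called dim where their mean over all arrays lay in the lowest 30% (under 4.77 log2 as deposited). In neurospheres, as in other bulk samples, more cells of a type and more RNA per cell cannot be told apart.

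With conditioned medium, 7 of the 23 probe sets rose, in 6 of the 10 genes, and 0 fell. Over all 31042 probe sets that are not array controls, 4.92% were higher and 0.986% lower by the same rule. The genes that rose were the ligands Igf2 and Igf1 and the binding proteins Igfbp3, Igfbp2, Igfbp4 and Igfbp7. Igf1r, Igf2r, Igfbp5 and Igfbp6 had no probe set that rose or fell. At an unadjusted limma p under 0.05, 10 of the 23 were higher and 0 lower, beside 14.3% and 15.0% of all probe sets. With the replicate number as a block, 7 of the 23 rose and 0 fell, and 1429 of all probe sets rose and 45 fell, against 1527 and 306 without it.

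**Figure D1:**
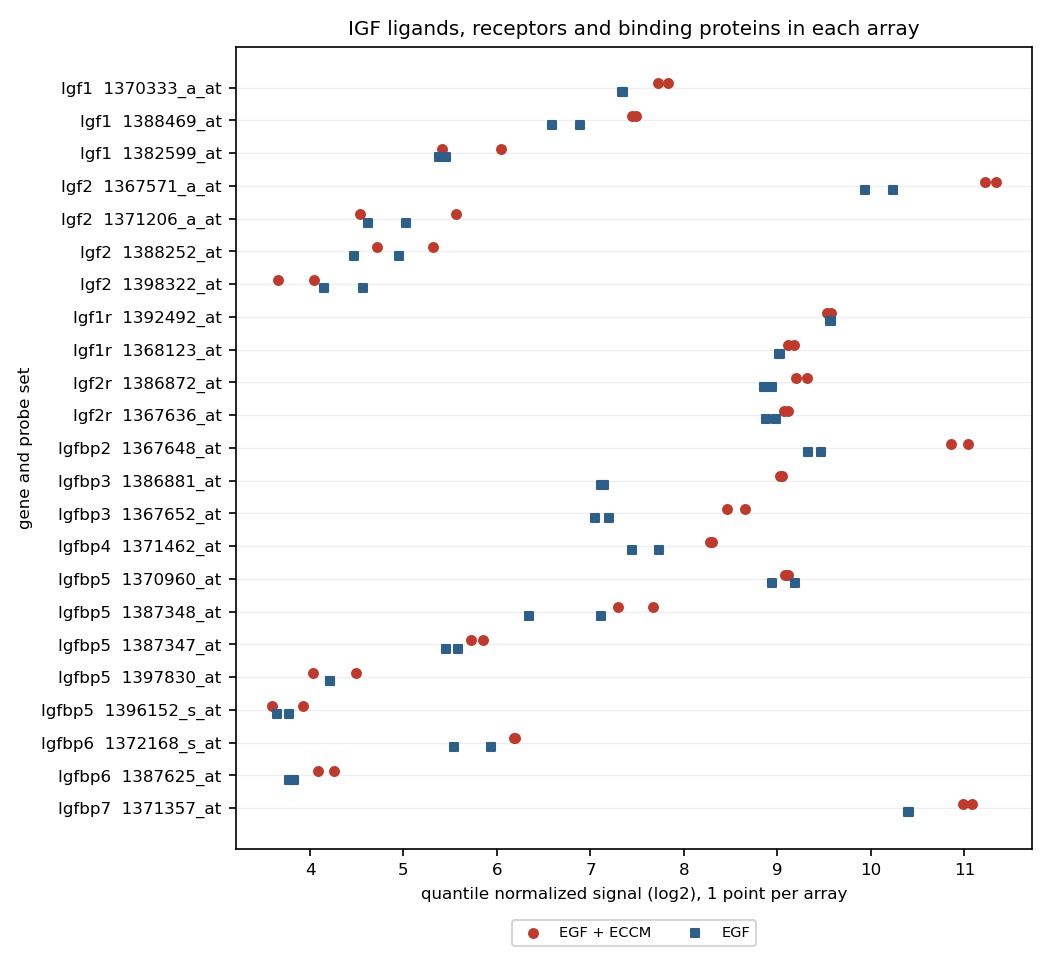
Quantile normalized log2 signal of each of the 23 probe sets (rows) in each array, with 2 EGF + ECCM arrays (circles) and 2 EGF arrays (squares). Both circles lie clear of the squares to the right for Igfbp2, Igfbp3, Igfbp4, Igfbp7 and the bright Igf2 probe set, and the conditions lie close together for Igf1r.

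The median difference of the 23 probe sets was 0.36 log2, beside -0.01 log2 for all probe sets. On deposited values these medians were 0.98 and 0.48 log2, and with median-centred arrays 0.41 and -0.09 log2. By quantile normalized values alone 9 of the 23 probe sets were called higher (8.2% of all probe sets), by deposited values alone 18 (31.2% of all) and with median-centred arrays alone 7 (6.26% of all). After quantile normalization 0 of the 23 were called lower (8.17% of all). The conditions did not overlap, with EGF + ECCM higher, for 15 of the 23 probe sets after quantile normalization (27.0% of all) and for 22 as deposited (69.4% of all). The 7 probe sets that rose lay between 0.63 and 1.91 log2, and the remaining 16 between -0.50 and 0.75 log2. All of the 4 dim probe sets, 1 of Igf2, 2 of Igfbp5 and 1 of Igfbp6, were among those 16.

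Promoter windows of the genes that carry the comparison are shown to set the largest rises (Igf2, Igfbp2, Igfbp3) and a smaller one (Igfbp4) beside Igfbp5, the neighbour of Igfbp2 that was not called. They run from 250 bases before to 50 bases after the annotated start, 5' to 3' along the gene, from RefSeq on rat assembly GRCr8, which lists 2 starts for Igf2. All 10 genes matched the RefSeq table by gene identifier. Capitals mark 2 of 4 motifs searched on both strands, the GC box GGGCGG and the TATA box TATAAA.
Igf2, chr1:207253931-207254230, minus strand: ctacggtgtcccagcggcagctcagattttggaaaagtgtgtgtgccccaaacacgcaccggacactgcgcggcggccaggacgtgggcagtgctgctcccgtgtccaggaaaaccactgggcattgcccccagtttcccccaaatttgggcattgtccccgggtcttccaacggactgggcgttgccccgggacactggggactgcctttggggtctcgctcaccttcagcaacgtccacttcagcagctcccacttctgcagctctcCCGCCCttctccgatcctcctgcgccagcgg
Igf2, chr1:207250426-207250725, minus strand: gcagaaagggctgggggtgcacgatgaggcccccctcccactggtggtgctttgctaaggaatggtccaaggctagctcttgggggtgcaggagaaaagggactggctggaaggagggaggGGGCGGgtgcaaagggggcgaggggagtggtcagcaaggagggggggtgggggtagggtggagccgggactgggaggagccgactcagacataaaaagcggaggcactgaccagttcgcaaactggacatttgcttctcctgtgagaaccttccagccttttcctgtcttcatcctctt
Igfbp2, chr9:81864561-81864860, plus strand: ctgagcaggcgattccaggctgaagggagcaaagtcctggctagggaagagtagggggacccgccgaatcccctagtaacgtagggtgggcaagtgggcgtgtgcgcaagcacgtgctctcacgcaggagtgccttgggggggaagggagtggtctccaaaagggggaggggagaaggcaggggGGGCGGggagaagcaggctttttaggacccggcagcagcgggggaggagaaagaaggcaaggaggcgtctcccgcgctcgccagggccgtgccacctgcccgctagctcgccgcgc
Igfbp3, chr14:86277895-86278194, minus strand: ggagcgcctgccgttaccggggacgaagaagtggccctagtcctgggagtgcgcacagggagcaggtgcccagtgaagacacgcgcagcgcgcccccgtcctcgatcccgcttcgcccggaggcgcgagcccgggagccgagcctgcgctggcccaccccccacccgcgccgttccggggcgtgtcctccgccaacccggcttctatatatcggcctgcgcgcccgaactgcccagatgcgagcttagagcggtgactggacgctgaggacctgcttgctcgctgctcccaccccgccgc
Igfbp4, chr10:84491221-84491520, plus strand: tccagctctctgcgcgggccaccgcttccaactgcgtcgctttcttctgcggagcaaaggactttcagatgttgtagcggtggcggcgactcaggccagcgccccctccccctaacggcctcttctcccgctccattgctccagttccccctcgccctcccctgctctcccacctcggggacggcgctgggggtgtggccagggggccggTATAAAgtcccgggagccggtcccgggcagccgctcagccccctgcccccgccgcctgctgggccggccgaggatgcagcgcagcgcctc
Igfbp5, chr9:81914138-81914437, minus strand: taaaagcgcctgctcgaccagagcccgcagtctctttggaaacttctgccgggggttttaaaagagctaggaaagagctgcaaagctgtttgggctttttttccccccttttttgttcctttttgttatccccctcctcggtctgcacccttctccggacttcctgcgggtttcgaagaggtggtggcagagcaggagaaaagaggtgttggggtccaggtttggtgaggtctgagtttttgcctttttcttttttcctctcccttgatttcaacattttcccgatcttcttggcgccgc

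The GC box was found in both Igf2 windows and in that of Igfbp2, and the TATA box in that of Igfbp4, where it began 40 bases before the start. Neither occurred in the windows of Igfbp3 and Igfbp5. Beyond the windows shown, GGGCGG was found in those of Igf1r and Igf2r, which were not called, and of Igfbp7, which rose. It was absent from those of Igf1 and Igfbp6. Among 33469 promoter windows of the same length, 33.1% held GGGCGG and 14.2% TATAAA. The other motifs, CCAAT (37.5% of all windows) and the AP-1 site TGANTCA (7.33% of all windows), were in none of the 6. CpG dinucleotides numbered 36 in the Igfbp3 window, 27 in that of Igfbp4, 20 in that of Igfbp2, 19 and 7 in those of Igf2 and 11 in that of Igfbp5, beside a median of 7 over all windows. The windows of Igf1r and Igf2r, which were not called, held 50 and 30, and that of Igf1, which rose at 1 probe set, held 7. These matches describe sequence only and name no factor that binds there.

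Among the ligands, Igf2, a fetal growth factor expressed from the paternal allele, rose at its bright probe set 1367571_a_at. The deposited values were 11.46 and 11.41 log2 in EGF + ECCM and 9.70 and 10.15 log2 in EGF. After quantile normalization they were 11.22 and 11.34 log2 in EGF + ECCM and 9.93 and 10.24 log2 in EGF. The lower EGF + ECCM array stood 0.98 log2 above the higher EGF array, a gap larger than the spread within either condition. The mean was 11.28 ± 0.08 log2 in EGF + ECCM and 10.09 ± 0.21 log2 in EGF (SD, n = 2 arrays each), a 2.28-fold difference (1.19 ± 0.10 SE, limma adjusted p = 4.43e-05).

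The remaining Igf2 probe sets, 3 that share 1 GenBank record, did not follow it. Probe set 1371206_a_at had 5.56 and 4.53 log2 in EGF + ECCM and 5.02 and 4.62 log2 in EGF, and 1388252_at had 4.72 and 5.32 log2 in EGF + ECCM and 4.47 and 4.95 log2 in EGF. The dim 1398322_at had 4.04 and 3.66 log2 in EGF + ECCM and 4.15 and 4.57 log2 in EGF. Its conditions did not overlap, with EGF + ECCM lower, as for 29.4% of all probe sets on this scale, and its difference of -0.50 ± 0.26 log2 (SE, limma adjusted p = 0.228) became 0.20 log2 as deposited. In EGF all 3 averaged less than the 4.77 log2 limit as deposited, so the rise of Igf2 rests on 1 probe set of 4. Which part of the Igf2 transcripts each probe set reads was not analysed here.

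Igf1, the ligand that growth hormone induces in liver and that many tissues make locally, rose at 1 of its 3 probe sets. Probe set 1388469_at had 7.44 and 7.49 log2 in EGF + ECCM and 6.59 and 6.89 log2 in EGF. Both EGF + ECCM arrays were higher than both EGF arrays, and the difference was 0.72 ± 0.16 log2 (SE, 1.65-fold, limma adjusted p = 0.0115). The brighter probe set 1370333_a_at had 7.72 and 7.83 log2 in EGF + ECCM and 7.35 and 7.34 log2 in EGF. Its difference of 0.43 ± 0.13 log2 (SE) had a limma adjusted p of 0.0413 after quantile normalization, of 0.0574 there with the replicate as a block and of 0.140 with median-centred arrays, so it was not called. For the third, 1382599_at, the conditions overlapped (5.41 and 6.05 log2 in EGF + ECCM, 5.46 and 5.38 log2 in EGF). Among the 3 Igf1 probe sets the differences ranged from 0.31 to 0.72 log2, all in the same direction.

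Neither receptor was called. Igf1r, the tyrosine kinase through which both ligands signal, had 9.58 and 9.53 log2 in EGF + ECCM and 9.57 and 9.58 log2 in EGF at probe set 1392492_at. These arrays lay within 0.05 log2 of each other, and the difference was -0.02 ± 0.08 log2 (SE, limma adjusted p = 0.890). The second probe set, 1368123_at, had 9.17 and 9.12 log2 in EGF + ECCM and 9.02 and 9.01 log2 in EGF (difference 0.13 ± 0.08 SE, limma adjusted p = 0.350). The direction depended on the scale: the differences of the 2 probe sets were 0.30 and 0.47 log2 as deposited and -0.26 and -0.09 log2 with median-centred arrays.

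Igf2r, the clearance receptor for IGF2, had 9.20 and 9.31 log2 in EGF + ECCM and 8.85 and 8.94 log2 in EGF at probe set 1386872_at. Both EGF + ECCM arrays were higher, by 0.36 ± 0.09 log2 (SE, limma adjusted p = 0.0193), but the adjusted p was 0.392 with median-centred arrays and the probe set was not called. The second, 1367636_at, had 9.11 and 9.07 log2 in EGF + ECCM and 8.88 and 8.99 log2 in EGF, a difference of 0.15 ± 0.09 log2 (SE, limma adjusted p = 0.273) that was -0.06 log2 with median-centred arrays.

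Among the binding proteins, Igfbp3, the main IGF carrier in serum, rose most and did so at both of its probe sets. As deposited, 1386881_at had 9.31 and 9.11 log2 in EGF + ECCM and 6.80 and 6.99 log2 in EGF. After quantile normalization the values were 9.05 and 9.03 log2 in EGF + ECCM and 7.12 and 7.14 log2 in EGF. The conditions were 1.89 log2 apart at their nearest arrays, and the difference was 1.91 ± 0.10 log2 (SE, 3.76-fold, limma adjusted p = 3.35e-06). Probe set 1367652_at had 8.46 and 8.66 log2 in EGF + ECCM and 7.05 and 7.20 log2 in EGF, a 2.70-fold difference (1.43 ± 0.13 SE, limma adjusted p = 5.63e-05). On GRCr8 the protein-coding gene next to Igfbp3 on one side is Igfbp1, a liver binding protein that insulin represses. Igfbp1 was dim in these neurospheres, with 3.73 and 3.62 log2 in EGF + ECCM and 3.86 and 4.22 log2 in EGF, and was not called (limma adjusted p = 0.328).

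Igfbp2, a binding protein abundant in fetal and neural tissue, rose as well. Its only probe set, 1367648_at, had 11.10 and 11.10 log2 in EGF + ECCM and 9.24 and 9.24 log2 in EGF as deposited, so replicates agreed to the second decimal. After quantile normalization the values were 10.85 and 11.03 log2 in EGF + ECCM and 9.47 and 9.33 log2 in EGF. The difference was 1.54 ± 0.09 log2 (SE, 2.91-fold, limma adjusted p = 3.96e-06).

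Igfbp5, which binds matrix and is the gene next to Igfbp2 on chromosome 9 of GRCr8, was not called at any of its 5 probe sets. The brightest, 1370960_at, had 9.11 and 9.08 log2 in EGF + ECCM and 8.94 and 9.18 log2 in EGF, so the EGF + ECCM arrays lay between the EGF arrays (difference 0.03 ± 0.10 SE, limma adjusted p = 0.864). Probe set 1387348_at had 7.67 and 7.29 log2 in EGF + ECCM and 6.34 and 7.12 log2 in EGF. Its difference of 0.75 ± 0.24 log2 (SE) had a limma adjusted p of 0.0595, and EGF replicate 1 stood apart from the other arrays. Without EGF replicate 1 that difference was 0.35 log2. The other 3 probe sets differed by 0.05 to 0.27 log2, and 2 of them were dim.

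Igfbp4, a binding protein that mainly limits IGF action and is cut by the protease PAPP-A, rose. Its probe set 1371462_at had 8.30 and 8.28 log2 in EGF + ECCM and 7.45 and 7.74 log2 in EGF. Both EGF + ECCM arrays were higher than both EGF arrays, by 0.70 ± 0.13 log2 (SE, 1.62-fold, limma adjusted p = 3.89e-03). Igfbp7, a low-affinity IGF binder secreted around vessels, rose at probe set 1371357_at. Its values were 10.98 and 11.08 log2 in EGF + ECCM and 10.40 and 10.40 log2 in EGF, and the difference was 0.63 ± 0.07 log2 (SE, 1.54-fold, limma adjusted p = 2.69e-04).

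Igfbp6, which prefers IGF2 over IGF1, was not called. Probe set 1372168_s_at had 6.18 and 6.19 log2 in EGF + ECCM and 5.54 and 5.94 log2 in EGF, and the difference was 0.45 ± 0.23 log2 (SE, limma adjusted p = 0.234). The dim probe set 1387625_at had 4.26 and 4.08 log2 in EGF + ECCM and 3.78 and 3.83 log2 in EGF (difference 0.36 ± 0.22 SE, limma adjusted p = 0.319). In both probe sets each EGF + ECCM array was above each EGF array.

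**Figure D2:**
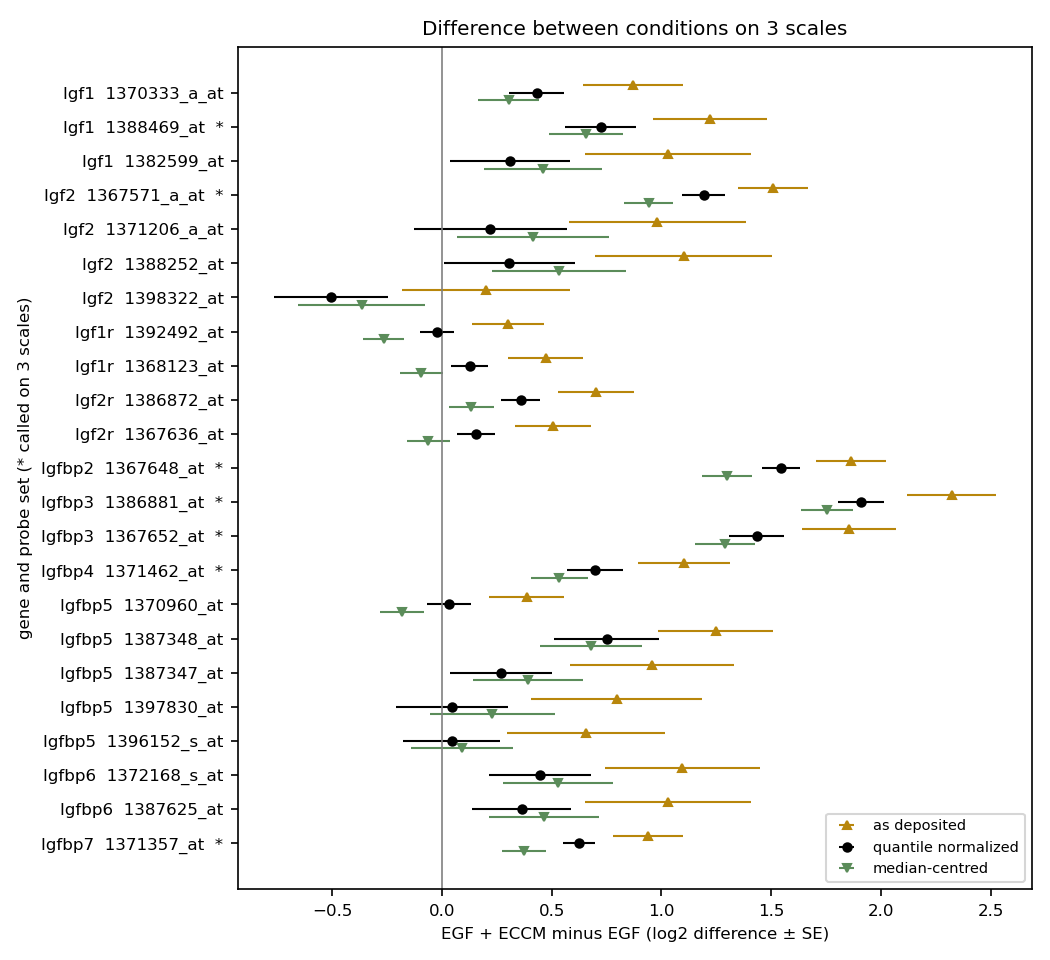
Log2 difference, EGF + ECCM minus EGF, with limma's SE for the 23 probe sets (rows) as deposited (upward triangles), quantile normalized (circles) and median-centred (downward triangles). An asterisk marks the 7 probe sets that rose on all 3 scales, and those of Igf1r and the bright Igfbp5 probe set lie on both sides of 0 depending on the scale.

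The sizes of the rises held when arrays were left out, while the calls did not. With any 1 of the 4 arrays left out, the differences ranged from 1.87 to 1.93 log2 for Igfbp3 (1386881_at), 1.45 to 1.64 for Igfbp2, 1.04 to 1.34 for Igf2 (1367571_a_at), 0.54 to 0.83 for Igfbp4, 0.58 to 0.68 for Igfbp7 and 0.56 to 0.87 for Igf1 (1388469_at). In each of these fits on quantile normalized values 0 of 31042 probe sets passed in limma, so 0 of the 23 did. At an unadjusted p under 0.05, the number of the 23 that were higher was 9 without EGF + ECCM replicate 2 or without EGF replicate 1, 10 without EGF + ECCM replicate 1 and 11 without EGF replicate 2. Over all probe sets 8.52% to 11.6% were higher at that limit. With deposited values the same fits called 7 to 16 of the 23 in either direction, where 7.65% to 33.8% of all probe sets were called, and with median-centred arrays 6 to 8, where 14.7% to 23.9% were.

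**Figure D3:**
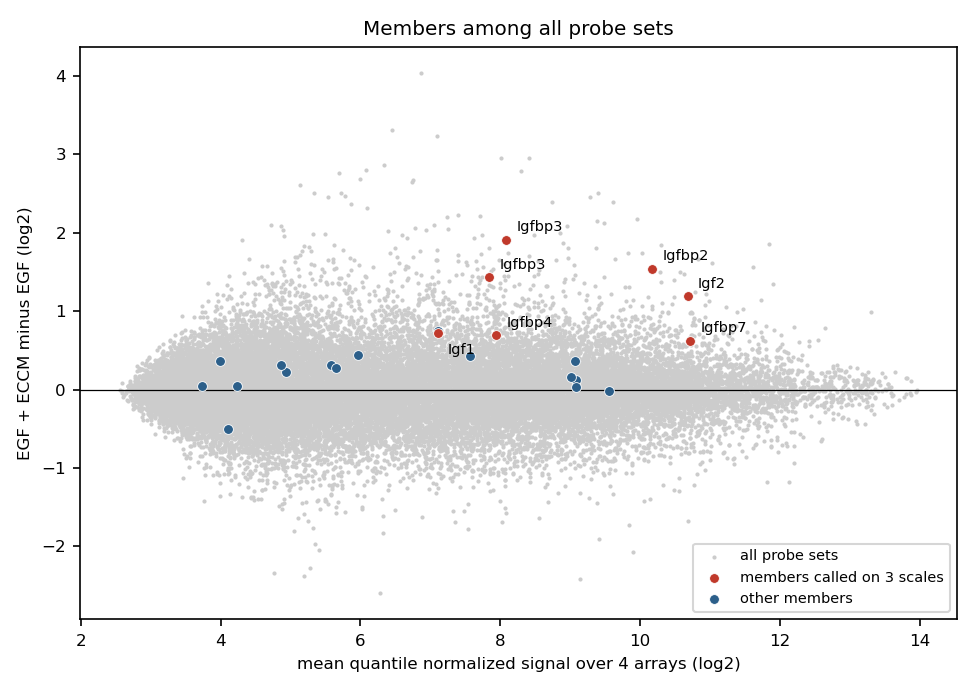
Log2 difference, EGF + ECCM minus EGF, against mean signal over the 4 arrays (quantile normalized, log2) for all probe sets (grey), the 7 that rose (red) and the other 16 (blue) of the IGF genes. The 2 Igfbp3 probe sets, Igfbp2 and Igf2 lie at 1.19 to 1.91 log2, above most grey points of like signal.

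Around these genes, 5 lists of the IGF pathway held 115 probe sets, of which 12 rose (in 10 genes) and 0 fell, beside 4.92% and 0.986% of all probe sets. Before the rule on 3 scales, 17 of the 115, among them Igf2r 1386872_at, were called higher and 14 lower after quantile normalization, and 0 were lower as deposited. As deposited, the median difference of all probe sets was 0.48 log2, so a fall by the rule was harder to reach than a rise. At an unadjusted limma p under 0.05, 21 of the 115 were higher and 18 lower, beside 14.3% and 15.0% of all probe sets.

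Imprinted genes of the Igf2 and H19 network held 7 of the 12, out of 21 probe sets, with a median difference of 0.32 log2. H19, a long non-coding RNA that is imprinted opposite to Igf2 and shares its enhancers, had 10.40 and 10.53 log2 in EGF + ECCM and 8.38 and 8.25 log2 in EGF. It rose 4.42-fold (2.14 ± 0.09 SE, limma adjusted p = 5.32e-07), which was more than any of the 23 probe sets. On GRCr8 Igf2 is the protein-coding gene next to H19 on one side. Cdkn1c, a maternally expressed inhibitor of cyclin-dependent kinases, rose by 1.03 ± 0.08 log2 (SE). Plagl1, a zinc finger factor (0.81 ± 0.07 SE), and Mest, a hydrolase-like protein of mesoderm (0.79 ± 0.07 SE), rose too, and both are paternally expressed. Dlk1, another paternally expressed gene, was not called (7.59 and 7.38 log2 in EGF + ECCM, 7.22 and 7.07 log2 in EGF), and a probe set of Meg3, its maternally expressed neighbour in mammals, was lower after quantile normalization (-0.52 ± 0.09 SE) but not as deposited (-0.20 log2). After quantile normalization 8 of the 21 were higher and 5 lower, the lower ones being Meg3, Ndn (-0.27 ± 0.07 SE), Nnat (-0.40 ± 0.08 SE), Zdbf2 (-0.43 ± 0.12 SE) and 1 probe set of Gnas (-0.66 log2). Ndn, Nnat and Zdbf2 are paternally expressed, and none of the 5 probe sets passed the test on all 3 scales. The values of these 5 genes and of Dlk1 were looked up after the list had been computed.

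Of 46 probe sets for adaptors and kinases after the IGF1 receptor 5 rose and 0 fell, with a median difference of -0.01 log2. Shc1, the adaptor that links the receptor to RAS, had 9.33 and 9.28 log2 in EGF + ECCM and 8.26 and 8.13 log2 in EGF, a difference of 1.11 ± 0.09 log2 (SE, limma adjusted p = 4.65e-05). Grb10, an imprinted adaptor that restrains insulin and IGF1 receptor signalling, rose at all 3 of its probe sets, by 0.60 to 1.17 log2, and stands on the imprinted list as well. Eif4ebp1, the translation repressor that mTOR inactivates, rose by 0.77 ± 0.13 log2 (SE). After quantile normalization 8 of the 46 were higher and 7 lower, and at an unadjusted limma p under 0.05 8 were higher and 10 lower. The 7 were probe sets of Pik3ca (-0.31, -0.33 and -0.42 log2), Pik3r2 (-0.37), Pdpk1 (-0.35), Rictor (-0.35) and Akt2 (-1.01, dim). All but that of Akt2 were called lower with median-centred arrays too, and none as deposited. Of the 8 higher probe sets, Irs2 (0.45 log2) and Akt1 1368862_at and 1383126_at (0.35 and 0.22 log2) were called as deposited, but not with median-centred arrays. The other probe sets of Pik3ca, Pik3r2, Pdpk1, Rictor and Akt2 differed by -0.29 to 0.20 log2 and were not called after quantile normalization.

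Of 14 probe sets for binding protein proteases and their regulators 2 rose and 0 fell, and 8 of the 14 were dim. Adamts1, a metalloprotease of the matrix, had 7.76 and 7.85 log2 in EGF + ECCM and 6.82 and 6.61 log2 in EGF (1.09 ± 0.15 SE, limma adjusted p = 6.61e-04). Prss23, a secreted serine protease, had 11.19 and 11.13 log2 in EGF + ECCM and 10.31 and 10.36 log2 in EGF (0.82 ± 0.07 SE, limma adjusted p = 5.26e-05). Of 24 probe sets for FOXO factors and genes that AKT restrains 1 rose (4.17%, beside 4.92% of all probe sets) and 0 fell. It was for the cell death mediator Bcl2l11 (0.76 ± 0.11 SE), while its other 2 probe sets differed by 0.12 and 0.17 log2 and were not called. Foxo3 1376593_at (-0.44 ± 0.08 SE) and Ccng2 (-0.25 ± 0.07 SE) were lower on the quantile and median-centred scales but not as deposited. The other Foxo3 probe sets were dim. At an unadjusted limma p under 0.05, 2 of the 24 were higher and 3 lower. Of 13 probe sets for the insulin family and other IGF-binding genes 0 rose or fell, and 0 were called in limma after quantile normalization. At an unadjusted limma p under 0.05 on that scale 1 was higher, Insrr 1369515_s_at, and 0 were lower. It differed by 0.90 ± 0.32 log2 (SE) and was called higher as deposited and with median-centred arrays (limma adjusted p = 5.14e-04 and 0.0189). Insrr 1388065_at, which was dim, differed by -0.08 log2. Others of the 13 were called higher on deposited values alone.

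**Figure D4:**
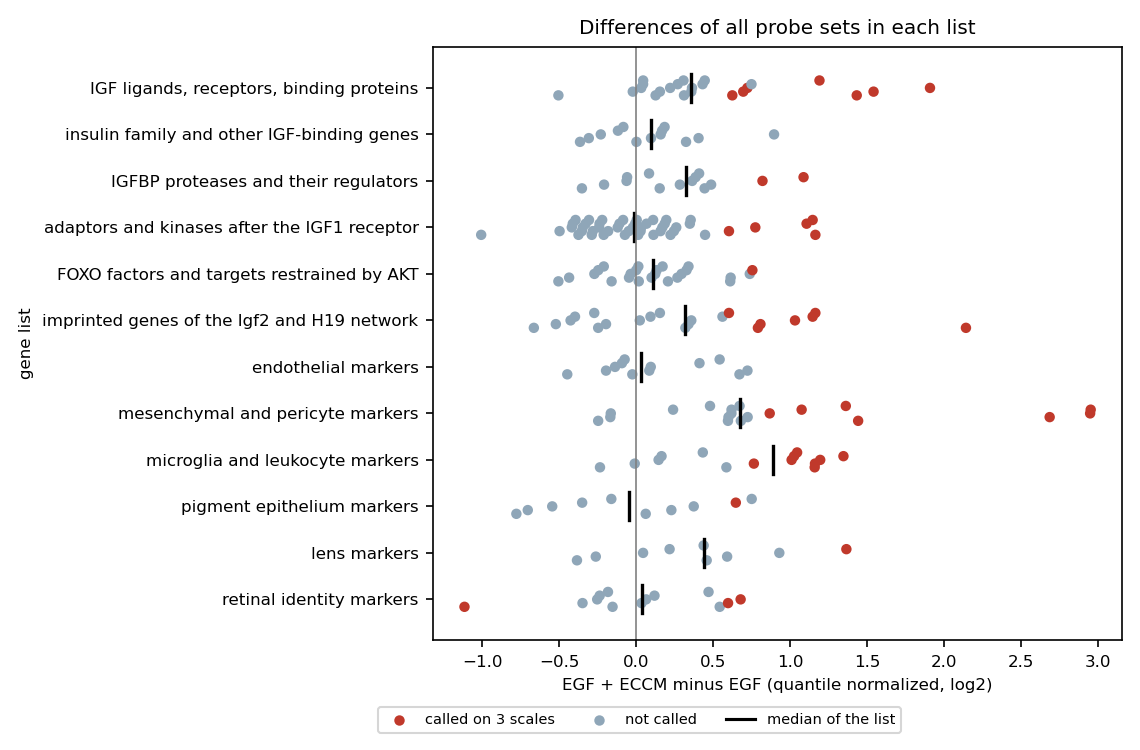
Log2 difference, EGF + ECCM minus EGF (quantile normalized), of every probe set (points) in the IGF genes, 5 IGF pathway lists and 6 marker lists (rows), with the median of each list as a bar and probe sets called on 3 scales in red. The medians were 0.36 log2 for the IGF genes, 0.67 log2 for mesenchymal and 0.89 log2 for microglia and leukocyte markers.

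Markers of other cell types moved between the same arrays. Of 19 mesenchymal and pericyte probe sets 7 rose and 0 fell, beside 4.92% and 0.986% of all probe sets. Their summed linear signals were 3301 and 3402 in EGF + ECCM and 1176 and 1061 in EGF. Those of Col1a2 were the brightest in EGF + ECCM (means 9.88 and 9.49 log2, against 6.93 and 6.54 log2 in EGF). Lum, Dcn and Pdgfrb 1391394_s_at differed by -0.17, -0.25 and -0.16 log2 and were not called. Of 14 microglia and leukocyte probe sets 8 rose (4.92% of all) and 0 fell, with sums of 1041 and 1125 in EGF + ECCM and 603 and 653 in EGF. At an unadjusted limma p under 0.05, 0 of the first and 0 of the second were lower. Of 12 endothelial probe sets 0 rose or fell in limma (3 higher and 0 lower at an unadjusted limma p under 0.05), with sums of 5922 and 5863 in EGF + ECCM and 4417 and 4603 in EGF. The brightest of them, Kdr 1367948_a_at, the main VEGF receptor of vessels, had 12.41 and 12.39 log2 in EGF + ECCM and 11.95 and 12.03 log2 in EGF. This 1 probe set carried most of each sum, and the median difference of the 12 was 0.03 log2. Kdr 1367948_a_at was higher after quantile normalization (0.41 ± 0.07 SE, limma adjusted p = 0.00286) but not with median-centred arrays (limma adjusted p = 0.386). The endothelial markers Pecam1, Tek, Tie1 and Emcn were dim. Cldn5 (0.67 ± 0.25 SE) and Esam (0.72 ± 0.23 SE) were called higher as deposited and with median-centred arrays. After quantile normalization they were not called (limma adjusted p = 0.0929 and 0.0568). Ramp2 differed by -0.45 log2 and was not called. The part of such cells in the rises of Igf1, Igf2 and the binding proteins was not tested.

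Lens markers rose at 1 of 9 probe sets (4.92% of all), with sums of 313 and 303 in EGF + ECCM and 239 and 214 in EGF. The 1 that rose, of Cryba1, was dim, as were 5 of the 9 in all. Pigment epithelium markers rose at 1 of 10, with sums of 1286 and 1323 in EGF + ECCM and 1844 and 1918 in EGF, and Rpe65, Tyr and Tyrp1 were dim. Dct (-0.78 ± 0.12 SE) and Rlbp1 (-0.70 ± 0.08 SE) of that list were lower after quantile normalization but not called as deposited. Rlbp1 carried most of these sums. The gene that rose was Mitf (0.65 ± 0.19 SE at 1377328_at, limma adjusted p = 0.0392), and its dim probe set 1393836_at differed by 0.75 log2. Among retinal identity markers the eye-field factor Pax6 was bright, with 12.71 and 12.59 log2 in EGF + ECCM and 12.77 and 12.85 log2 in EGF. With median-centred arrays it was lower in EGF + ECCM (-0.43 ± 0.12 SE, limma adjusted p = 0.0177). Six3 had only 6.76 and 6.83 log2 in EGF + ECCM and 6.67 and 6.86 log2 in EGF. Of 13 probe sets of that list 2 rose (Six6 and Sox2 1375153_at), 1 fell (Crx) and 1 was dim. After quantile normalization 4 were higher and 2 lower. The brightest Sox2 probe set, 1379942_at, differed by 0.07 ± 0.07 log2 (SE, limma adjusted p = 0.579). Sox2 1381874_at (0.47 ± 0.10 SE) was higher after quantile normalization but not with median-centred arrays (limma adjusted p = 0.197).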

How the data were processed

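Expression was measured in 4 arrays, 2 of neurospheres with EGF and endothelial cell conditioned medium and 2 with EGF. Per the labels, the authors ran RMA in GenePattern, and what they deposited are log2 values. The version and options of RMA, and any genome build, are not given in the sources used here. Each deposited array held only 2738 to 3291 distinct values, with steps of about 0.049 log2 between 4 and 5 log2, and no array shared the distribution of another. Quantile normalization was therefore applied, with deposited and median-centred values as alternatives.

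All 31042 probe sets without the 57 array controls entered a two-sided test with limma 3.58.1 (lmFit and trended eBayes, run under R 4.3.3), with Benjamini-Hochberg adjustment over all 31042, no filter and no block. The prior had 8.30 degrees of freedom on quantile normalized and 10.8 on median-centred values. On deposited values it swamped the residual ones, so the adjusted p-values there rest on spread pooled over probe sets. Of the 31042, 20826 had 1 gene symbol, 436 several and 9780 none. Genes beyond the 10 were named by smallest p, up to 4 per pathway list, with exceptions. Igfbp1, Dlk1, Meg3, Ndn, Nnat, Zdbf2, Gnas, Pik3ca, Pik3r2, Pdpk1, Rictor, Akt2, Foxo3, Ccng2, Pax6 and the other genes named from the marker lists were chosen after their values were seen. So were Insrr, Irs2 and Akt1. The genes and lists were chosen with earlier results of these data known. The number of arrays limits the precision. The series description has each pool of embryos cultured in both conditions but does not say that the replicate numbers mark the pools. Across probe sets, the deviations of the arrays numbered 1 from their condition means correlated at -0.02 after quantile normalization. With 2 arrays per condition those numbered 2 mirror them, so this is a single comparison. The fit was made without the replicate as a block, and the blocked fit is given beside it where it differs.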

Additional observations from a re-analysis of the deposited data

How the results depend on the processing

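The 7 probe sets that rose stayed higher in EGF + ECCM with deposited and median-centred values, the 30% filter, no intensity trend, the replicate block and any 1 array left out, as did the 5 of them that were kept where the brightest probe set stood for each gene. Signs changed only for probe sets that did not rise or fall, and the cause was not tested: to 0.20 (Igf2 1398322_at) and 0.30 log2 (Igf1r 1392492_at) as deposited, to -0.094 (Igf1r 1368123_at), -0.061 (Igf2r 1367636_at) and -0.18 log2 (Igfbp5 1370960_at) with median-centred arrays, and, with an array left out, in Igf1 1382599_at (-0.0034 to 0.66), Igf2 1371206_a_at (-0.30 to 0.74), Igf1r 1392492_at (-0.047 to 0.0036), and Igfbp5 1370960_at (-0.086 to 0.16), 1397830_at (-0.19 to 0.28) and 1396152_s_at (-0.12 to 0.19).

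As deposited, 18 of the 23 probe sets, 49 of the pathway lists and 9688 of all were higher, against 9, 17 and 2544 after quantile normalization, and 0 of the pathway lists and 307 of all were lower, against 14 and 2535. With median-centred arrays 5213 of all were lower. Without the intensity trend, 4 of the 23 rose (Igf2, Igfbp2 and both of Igfbp3), 5 of the pathway lists and 558 of all, and 92 of all fell. After quantile normalization alone that setting gave 4, 8 and 697 higher and 0 (pathway lists) and 558 (all) lower. With the replicate as a block 45 of all fell, against 306, while 7 of the 23 and 1429 of all rose. Igf1 1370333_a_at lost its call on the quantile scale, and no other of the 23 changed its call there. With the brightest probe set per gene 202 genes fell, and 1606 were lower after quantile normalization. With the filter, 8 of the 23 rose, adding Igfbp5 1387348_at, and 1579 of all, against 1527.

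With 1 array left out, 0 probe sets passed after quantile normalization, where the prior had 1.75 to 2.13 degrees of freedom. With the filter as well, an alternative chosen after seeing the data, 0 to 7 of the 23, 0 to 11 of the pathway lists and 0 to 1170 of all were higher, and 0 to 3 of the pathway lists and 0 to 793 of all lower. On all 3 scales these ranges were 0 to 6, 0 to 10 and 0 to 1042 risen and 0 to 120 of all fallen. The zeros came from leaving out either EGF + ECCM array. The lone array is assumed to vary like the other condition. Scanner files were not analysed here, so the background correction was not varied. Dim probe sets limit what can be seen for Igf2, Igfbp5 and Igfbp6.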
